A study of Mus musculus with 17 samples.

Results

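The glucose response of control β cells was measured in 7 of the 17 RNA-sequencing samples of the series. The labels of the deposited samples name the genotype and the glucose concentration, and the samples were chosen by these names alone, 3 at 2.8 mM (low glucose) and 4 at 16.7 mM (high glucose). The control mice, labelled WT, were male and had an intact *Pcbp2* gene. Per the study's text, they carried the RIP-Cre transgene, in which the rat insulin promoter drives Cre recombinase, and the Cre-inducible *Rosa26* tdTomato reporter, and their isolated islets were cultured for 72 hours before tdTomato+ cells were sorted into lysis reagent. Before the 72 hours, the islets recovered for 3 days in medium whose glucose concentration lay between 2.8 mM and 16.7 mM. Higher and lower below thus compare these concentrations with each other and not with the recovery medium. The sort takes cells whose lineage has expressed Cre, whether or not they still express insulin. The other 10 samples came from *Pcbp2* βKO mice, which carried the same transgene and reporter with floxed *Pcbp2* alleles, and they are used here for the spread between samples and for a side-by-side comparison (5 samples at each concentration). The age of the mice, the number of mice per sample and the meaning of a replicate number are not given in the sources used here, so that the p values measure the spread between these samples, which may in part be technical.

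Pancreatic β cells take up glucose through high-capacity transporters, and its metabolism closes ATP-sensitive potassium channels, and the calcium that then enters triggers the release of insulin granules and activates transcription factors. Over days, high glucose raises the synthesis of proinsulin, which is folded in the endoplasmic reticulum (ER) and cleaved later, in the granules. Proinsulin takes up a large part of the capacity of the cell to make secretory protein. Glucose also acts on genes directly through the transcription factor ChREBP (*Mlxipl*).

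Total estimated counts per sample were 70712840 to 78719001 at low glucose and 65070242 to 69201359 at high glucose, and 19852 ± 656 genes (SD, n = 3) and 18793 ± 583 genes (n = 4) had at least 10 counts. Values below are CPM, counts scaled to the size of the library with the TMM factors of edgeR, and lists of values give replicates 1 to 3 at low glucose and 1 to 4 at high glucose in this order. Markers of β cells dominated all 7 samples, with summed levels of 119040 to 123220 CPM at low and 272010 to 526060 CPM at high glucose over the 10 markers. The summed markers of α cells were at 696 to 2657 CPM and 650.2 to 1633 CPM, those of PP cells at 1111 to 1208 CPM and 369 to 999 CPM, those of δ cells at 251 to 391 CPM and 148 to 336 CPM, and those of ductal cells at 494 to 564 CPM and 437 to 1202 CPM, where 3 of the 4 high-glucose samples lay above the low-glucose samples. Markers of macrophages (85.3 to 155 CPM and 38.7 to 106 CPM), acinar (7.27 to 23.7 CPM and 1.69 to 22.8 CPM), endothelial, stellate and Schwann cells were lower still. Of the 6 tested α cell markers *Ttr* and *Gc* were called higher, the latter not without low-glucose replicate 1 or 3 or high-glucose replicate 1 or 2 (adjusted p = 0.0524 to 0.106). Of the ductal markers 1 was called higher, and 1 each of the δ, macrophage and Schwann markers was called lower. Apart from the β cell sum, only the PP, endothelial and Schwann sums did not overlap between the glucose concentrations, and their part in the results was not tested. In sorted samples of this kind, fewer cells of a type and less RNA per cell cannot be told apart.

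Glucose changed the transcriptome broadly. Of 22784 genes tested with the quasi-likelihood test of edgeR, 3153 were called at a fold change over 1.5 and a Benjamini-Hochberg adjusted p under 0.05, which is 13.8% of the genes. Those higher at high glucose numbered 1629 (7.15%) and those lower 1524 (6.69%). Among the called genes, 2775 did not overlap between the 3 low-glucose and the 4 high-glucose samples, as was the case for 5495 genes (24.1%) of all those tested. The increases were larger than the decreases. Of the 584 called genes that changed more than 4-fold, 465 were higher and 119 lower, and of the 117 that changed more than 16-fold, 102 were higher and 15 lower. The share called rose with the level of a gene, from 4.38% of the 9789 genes with a mean under 1 CPM to 37.1% of the 62 genes with a mean of 1000 CPM or more. Among protein-coding genes 1319 were higher and 1370 lower, and among long noncoding RNAs 220 were higher and 97 lower.

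**Figure D1:**
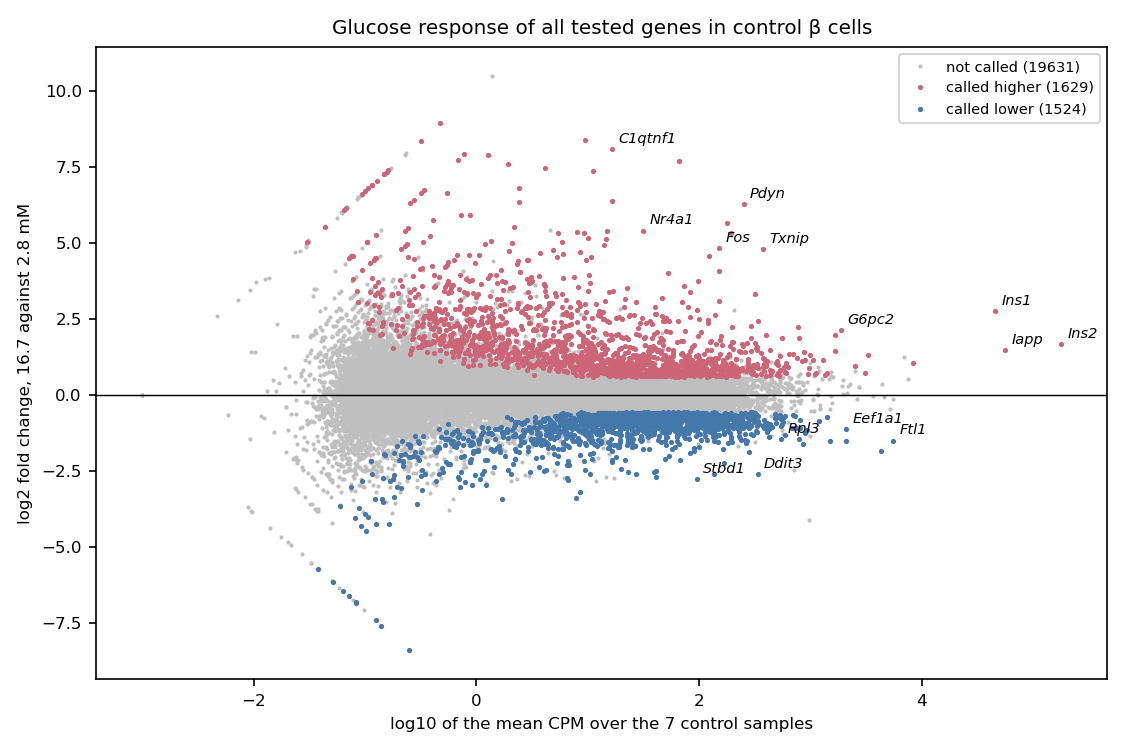
Log2 fold change at 16.7 against 2.8 mM glucose of all 22784 tested genes in control β cells (vertical axis) against the log10 of the mean CPM over the 7 samples (horizontal axis). Each point is a gene, 1629 called higher are red, 1524 called lower are blue, and the largest changes lie above 0 while *Ins2* and *Ins1*, at the far right, rose.

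The balance between higher and lower genes depends on the scale. *Ins1* (ENSMUSG00000035804, GRCm39 chromosome 19 from 52252735 to 52253914) and *Ins2* (ENSMUSG00000000215, chromosome 7 from 142232393 to 142297118, overlapping readthrough transcripts included) took 10.1%, 9.83% and 10.5% of all counts at low glucose and 33.1%, 28.0%, 24.9% and 22.3% at high glucose. Every high-glucose library was thus above every low-glucose library (27.1% ± 4.66 against 10.2% ± 0.333, SD, n = 4 and 3, exact permutation test, two-sided, p = 0.0286, which is the smallest that 3 against 4 samples can give, and 0.0429 after adjustment over 3 library measures). TMM factors take this out, and the median gene then changed by 0.04 on the log2 scale. With total counts alone the median gene moved to -0.35, and 782 genes were called higher against 4055 lower. On log2(TPM + 1) of the deposited TPM, abundance per transcript length with the same total in each sample, the median was -0.24, and limma called 250 higher against 6725 lower. Over the 9977 genes with a mean of at least 5 CPM the medians were -0.07 with TMM, -0.45 with total counts and -0.74 with TPM. Of the 35 lists described below, 8 medians changed sign with total counts and 16 with TPM, for which the list of ER entry went from 0.58 to -0.25 and that of cholesterol synthesis from 0.78 to -0.03. Changes below are therefore relative to the typical gene of the same cells on the TMM scale and do not measure the absolute amount of a message. *Ins2* alone made up 322520 TPM at low and 542350 TPM at high glucose, as group means.

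The genes that rose most were of several kinds. By a rule that took called protein-coding genes whose mean was 10 CPM or more and whose 2 groups did not overlap, the 12 largest increases were those of *C1qtnf1*, *Dapl1*, *Slc5a10*, *Pdyn*, *Ttyh1*, *Nr4a1*, *Nr4a2*, *Tph1*, *Dclk1*, *Apob*, *Fos* and *Txnip*, with log2 fold changes from 8.09 to 4.78. *Pdyn*, which encodes the precursor of the dynorphin opioid peptides, was at 4.46, 6.92 and 5.44 CPM at low glucose and at 623, 654, 322 and 139.6 CPM at high glucose (log2 fold change 6.28, SE 0.80, adjusted p = 0.000337). *Tph1*, the first enzyme of serotonin synthesis, was at 7.07, 6.75 and 11.5 CPM at low glucose and at 232, 406, 661 and 34.5 CPM at high glucose (log2 fold change 5.30, SE 0.82, adjusted p = 0.000792). In both genes the 4 high-glucose samples stood far above the 3 low-glucose samples, and replicate 4 was the lowest of the 4. *Apob*, the main protein of triglyceride-rich lipoproteins, was at 0.567, 0.915 and 0.853 CPM at low glucose and at 11.02, 68.5, 14.3 and 1.61 CPM at high glucose, where replicate 2 was far above the other samples (log2 fold change 4.93, SE 1.13, adjusted p = 0.00746). *Dclk1*, a microtubule-associated kinase, was raised by 5.13 (SE 1.10) on the log2 scale.

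The 12 largest decreases were smaller, with log2 fold changes from -2.77 to -2.11, and belonged to *Stbd1*, *Steap1*, *Angptl6*, *Vipr2*, *Ddit3*, *Emid1*, *Hspa1b*, *Dcdc2a*, *Cyb5r1*, *L1cam*, *Selenow* and *Fam221a*. *Angptl6*, a secreted angiopoietin-like protein, was at 289, 277 and 217 CPM at low glucose and at 29.8, 21.02, 23.7 and 94.7 CPM at high glucose (log2 fold change -2.62, SE 0.58, adjusted p = 0.00647). *Vipr2*, a receptor for the neuropeptides VIP and PACAP, was at 24.6, 20.4 and 15.5 CPM at low glucose and at 1.59, 1.39, 0.437 and 9.68 CPM at high glucose (log2 fold change -2.61, SE 0.70, adjusted p = 0.0175). In both, replicate 4 at high glucose lay between the other 3 and the low-glucose samples. *Selenow*, a small selenoprotein, was at 109, 168 and 83.1 CPM at low glucose and at 24.01, 17.8, 25.8 and 41.03 CPM at high glucose (log2 fold change -2.14, SE 0.35, adjusted p = 0.00109). *L1cam*, a neural cell adhesion protein, fell from 29.9 ± 1.87 to 6.73 ± 4.89 CPM. Each of the 12 increases was called in all 7 fits that left out 1 control sample, whereas *Stbd1*, *Steap1*, *Vipr2*, *Ddit3*, *Emid1*, *Hspa1b* and *Cyb5r1* lost the call in at least 2 of those fits.

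The high-glucose samples differed among themselves more than the low-glucose samples did. Over the 9977 genes with a mean of at least 5 CPM, the median SD of log2 CPM was 0.197 at low and 0.275 at high glucose, and the biological coefficient of variation was 0.331 and 0.410. Without replicate 4 the high-glucose values were 0.222 and 0.349. Of the 3153 calls 1191 (599 higher and 592 lower) were kept in each of the 7 fits that left out 1 control sample, which called from 1436 genes without low-glucose replicate 2 and 2027 without low-glucose replicate 1 to 4481 without high-glucose replicate 4. Pearson correlations between replicates, taken across genes, which are not independent replicates, were 0.958 to 0.969 at low glucose, 0.899 to 0.966 at high glucose and 0.941 to 0.966 without replicate 4. On the first principal component of the 7 samples, which held 38.0% of the variance, the low-glucose samples lay at -111.9 to -64.1, replicates 1 to 3 at high glucose at 92.8 to 97.6, and replicate 4 at -16.4.

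Replicate 4 had responded in the same direction but less. Without it, 4481 genes (19.7%) were called, 2216 higher and 2265 lower, and 3057 of the 3153 calls above were among them. Of these 4481 genes, 3978 (88.8%) moved in replicate 4 toward the other 3 samples, by a median of 41.8% of the change seen in those (interquartile range 19.9% to 65.3%). The same measure was 105%, 110.4% and 112% for replicates 1, 2 and 3, each set against the fit without it. Those fits include replicate 4, whose smaller response lowers the change used as the reference, so these values are not fully alike to that of replicate 4. For each replicate the genes were called against the same low-glucose samples that serve as the baseline. Part of the shared direction and of the size of these values is thus set by the choice of genes. The share of all tested genes with the same direction is not given here. The share of insulin counts in replicate 4 (22.3%) was the lowest of the high-glucose samples, and its mitochondrially encoded share (1.97%) lay within their range (1.00% to 1.98%). With the replicate number as a block over the 7 control samples, 5793 genes (25.4%) were called, 2803 higher and 2990 lower, and replicate 4, which has no partner at low glucose, adds nothing to that estimate.

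The smaller response of replicate 4 was not the same for all groups of genes. The mean change of a list from the low-glucose mean, in log2 CPM, was compared between replicate 4 and the mean of the other 3 high-glucose samples. For cytosolic ribosomal proteins replicate 4 reached 103% of the others, for elongation and termination factors 105%, for the enzymes of fatty acid synthesis 87.9%, for immediate-early factors 78.5% and for the targets of ChREBP 72.8%. For the hormones it reached 61.6%. For genes of ER entry, glycosylation and COPII transport it reached 19.5%, for the factors of the integrated stress response 21.0%, for granins 7.07% and for ER chaperones and folding enzymes -1.18%, so that in these replicate 4 lay near the low-glucose samples. Some lists below are given with and without this sample and others only with it, and why it differed was not tested.

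**Figure D2:**
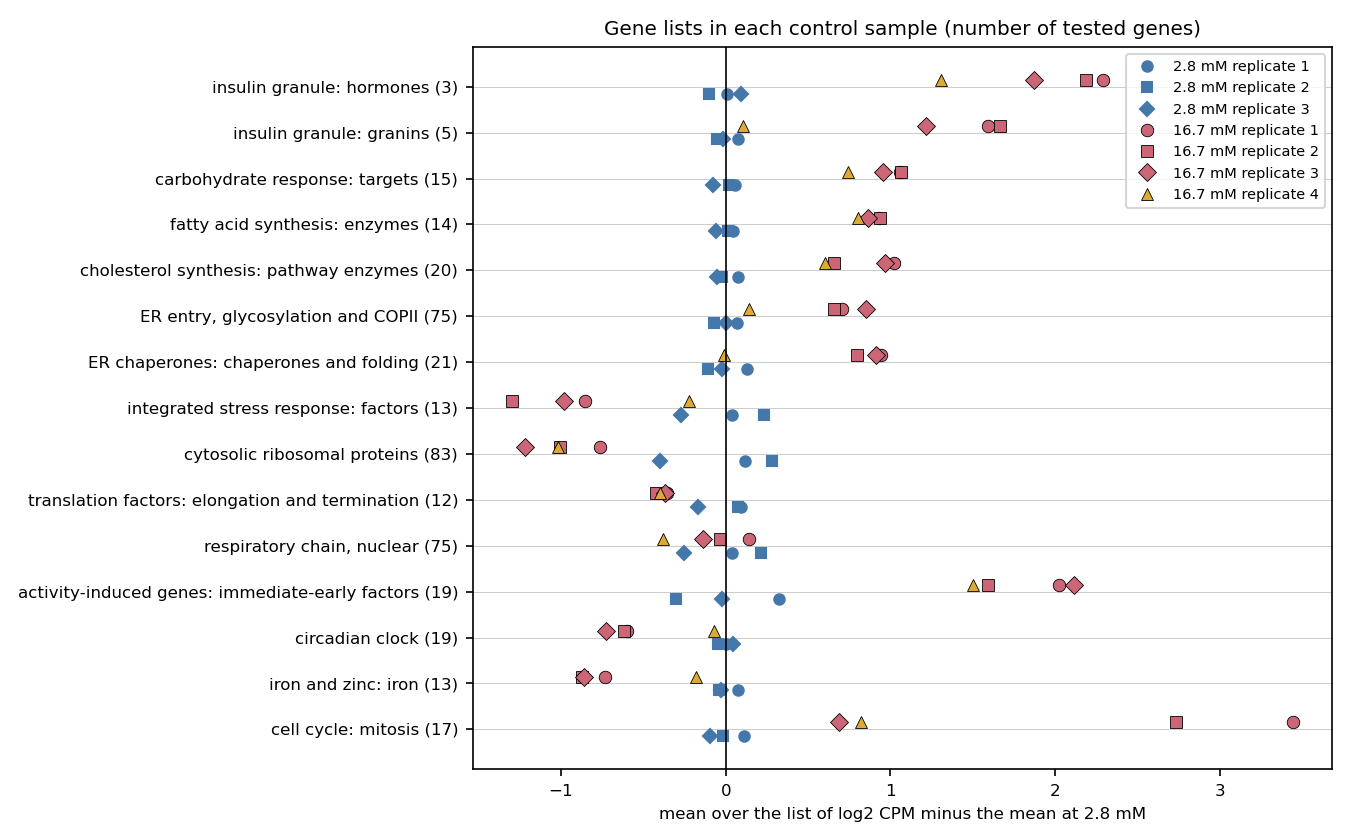
Mean log2 CPM of 15 gene lists, relative to the low-glucose mean (horizontal axis), in each of the 7 control samples. Blue symbols are the 3 samples at 2.8 mM, red symbols and the yellow triangle (replicate 4) the 4 samples at 16.7 mM; for ribosomal proteins all 4 lie near -1, while for ER chaperones the triangle lies near 0.

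**Figure D3:**
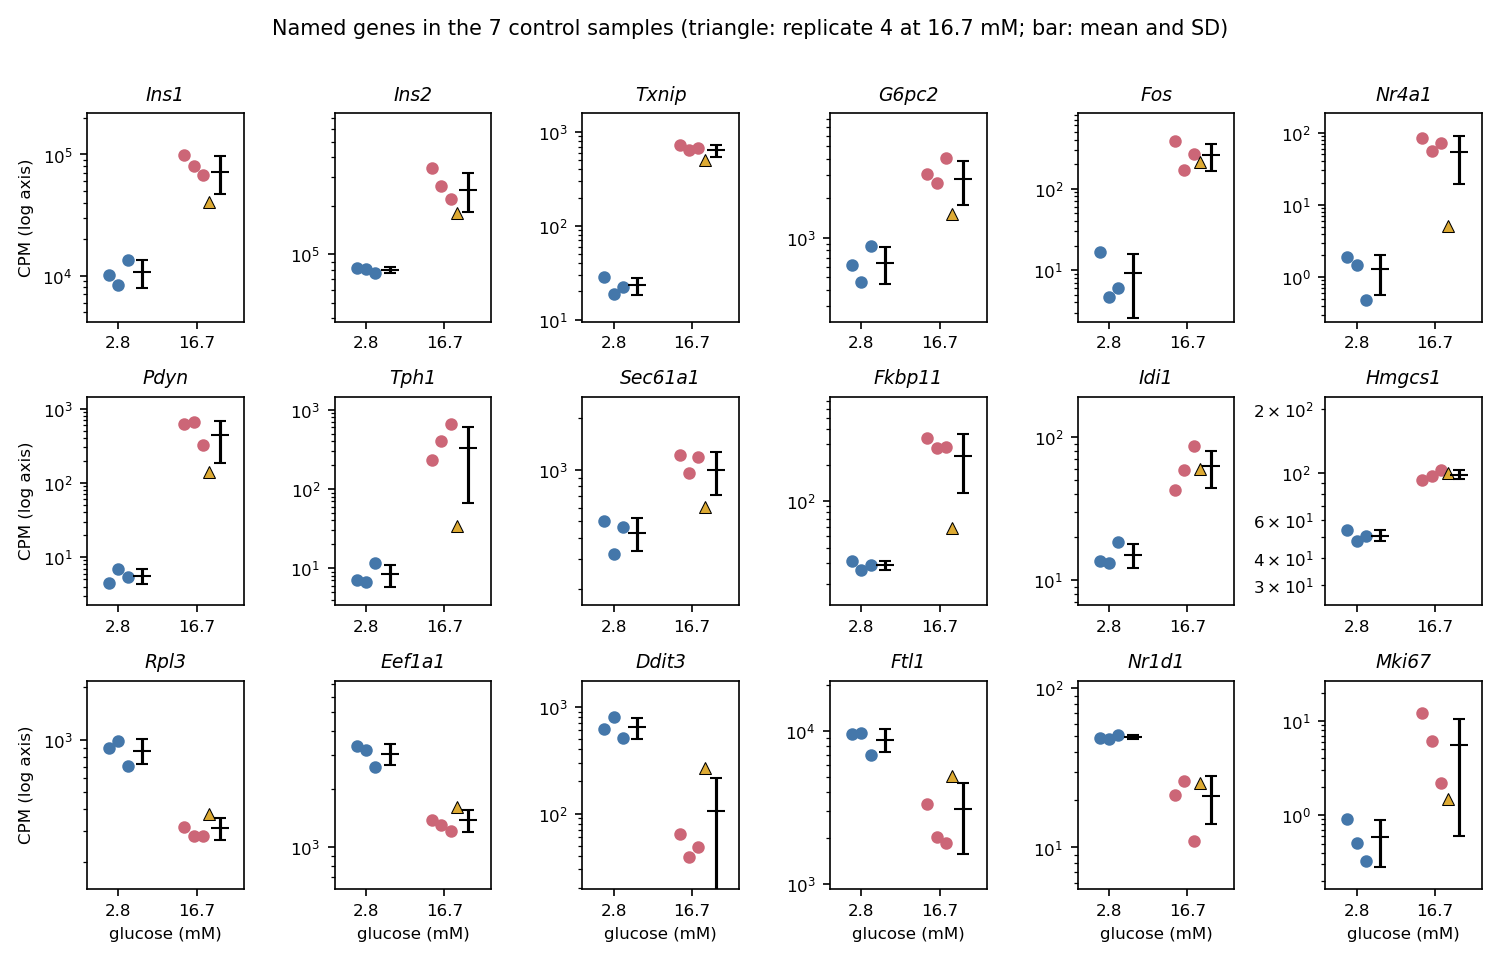
CPM of 18 genes (vertical axes, log scale) in the 7 control samples at 2.8 and 16.7 mM glucose. Circles are samples, the triangle is replicate 4 at 16.7 mM, and bars give the mean and SD of each group (cut at the edge of the panel where the SD is as large as the mean); *Txnip*, *Fos* and *Idi1* separate fully in all samples, and *Ddit3* lies between the groups in replicate 4.

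Many genes of the insulin granule rose. Of 29 tested genes, 12 were called higher and 1 lower, against 7.15% and 6.69% of all genes. The median change was 0.92 on the log2 scale. Without replicate 4 there were 14 and 2, and with the replicate number as a block 16 and 2. All 3 hormones of the list were called. *Ins2* was at 82305, 81245 and 76095 CPM at low glucose and at 341510, 263980, 221820 and 180260 CPM at high glucose (log2 fold change 1.66, SE 0.27, adjusted p = 0.00109). *Ins1*, the other insulin gene of the mouse, was at 10044, 8327 and 13605 CPM at low glucose and at 99392, 79947, 67437 and 40714 CPM at high glucose (log2 fold change 2.75, SE 0.30, adjusted p = 0.000114). *Iapp*, which encodes the co-secreted peptide amylin, was at 28619, 27700 and 27274 CPM at low glucose and at 80526, 103970, 76557 and 47774 CPM at high glucose (log2 fold change 1.47, SE 0.36, adjusted p = 0.011). Every high-glucose sample lay above every low-glucose sample for the 3 hormones, and replicate 4 was the lowest of the high-glucose samples each time. The *Iapp* call was lost without low-glucose replicate 2 (adjusted p = 0.0527).

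The convertases that cut proinsulin rose with it. *Pcsk1*, which makes the first of the cuts, was at 655, 390.0 and 854 CPM at low glucose and at 2673, 2696, 3236 and 1233 CPM at high glucose (log2 fold change 1.96, SE 0.38, adjusted p = 0.0031). *Pcsk2*, which makes the other, was at 1907, 2066 and 1472 CPM at low glucose and at 5679, 6134, 3811 and 2173 CPM at high glucose (log2 fold change 1.29, SE 0.33, adjusted p = 0.0125). The groups did not overlap for either, but the *Pcsk2* call was lost without low-glucose replicate 3 (adjusted p = 0.0527). The carboxypeptidase *Cpe*, which trims the cut ends, was the most abundant of the enzymes and was at 3810 ± 489 CPM at low and 4860 ± 246 CPM at high glucose (log2 fold change 0.35, SE 0.18, adjusted p = 0.211). Among granins, the acidic proteins that help to pack the granule, *Chga* was at 6635, 3950.4 and 4930.1 CPM at low glucose and at 16338, 13818, 6752 and 5726 CPM at high glucose (log2 fold change 1.04, SE 0.32, adjusted p = 0.0361), with replicate 4 inside the range of the low-glucose samples. This call was lost without low-glucose replicate 2 or 3 and without high-glucose replicate 1 or 2 (adjusted p = 0.0943 to 0.160). *Vgf*, a granin-like precursor of several peptides, went from 10.015 ± 5.12 to 62.9 ± 38.8 CPM, but its replicate 4 was at 9.81 CPM. Its call was kept only in the fit without replicate 4.

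Some other members of the list rose as strongly. *G6pc2*, the islet glucose-6-phosphatase, an enzyme of the ER membrane that the list groups with granule membrane proteins, was at 618, 455 and 860.4 CPM at low glucose and at 3072, 2621, 4042 and 1526 CPM at high glucose (log2 fold change 2.13, SE 0.43, adjusted p = 0.00392). *Ptprn*, which encodes the granule protein IA-2, was at 154, 164 and 136 CPM at low glucose and at 849, 623, 698 and 192 CPM at high glucose (log2 fold change 1.96, SE 0.44, adjusted p = 0.00646). *Hid1*, a trans-Golgi protein needed for granule formation, rose by 1.55 (SE 0.29) on the log2 scale. The zinc transporter *Slc30a8*, which loads the granule with zinc, did not pass the test (580.3 ± 89.2 and 502 ± 74.7 CPM).

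The exocytosis machinery changed in part. Of 38 tested genes, 9 were called higher and 2 lower, against 7.15% and 6.69% of all genes. The median was 0.40, which went to 0.00 with total counts. Without high-glucose replicate 1 or low-glucose replicate 2 only 4 were called higher. Among docking and priming factors 7 of 17 were called higher and 1 lower. *Rab3d*, a granule GTPase, rose from 148 ± 30.4 to 401 ± 117 CPM and *Unc13a*, which primes granules for fusion, from 20.7 ± 2.07 to 44.3 ± 13.98 CPM, whereas the related GTPase *Rab3b* was at 129, 195 and 124 CPM at low glucose and at 36.6, 37.5, 28.7 and 75.6 CPM at high glucose (log2 fold change -1.74, SE 0.37, adjusted p = 0.00473). Of the calcium sensors, *Syt5* was at 22.2, 23.9 and 20.2 CPM at low glucose and at 209, 184, 158 and 56.3 CPM at high glucose (log2 fold change 2.78, SE 0.46, adjusted p = 0.00109). Of the 9 SNARE proteins, which fuse the membranes, only *Stx4a* was called, and it was lower, a call lost without low-glucose replicate 2 (adjusted p = 0.117).

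**Figure D4:**
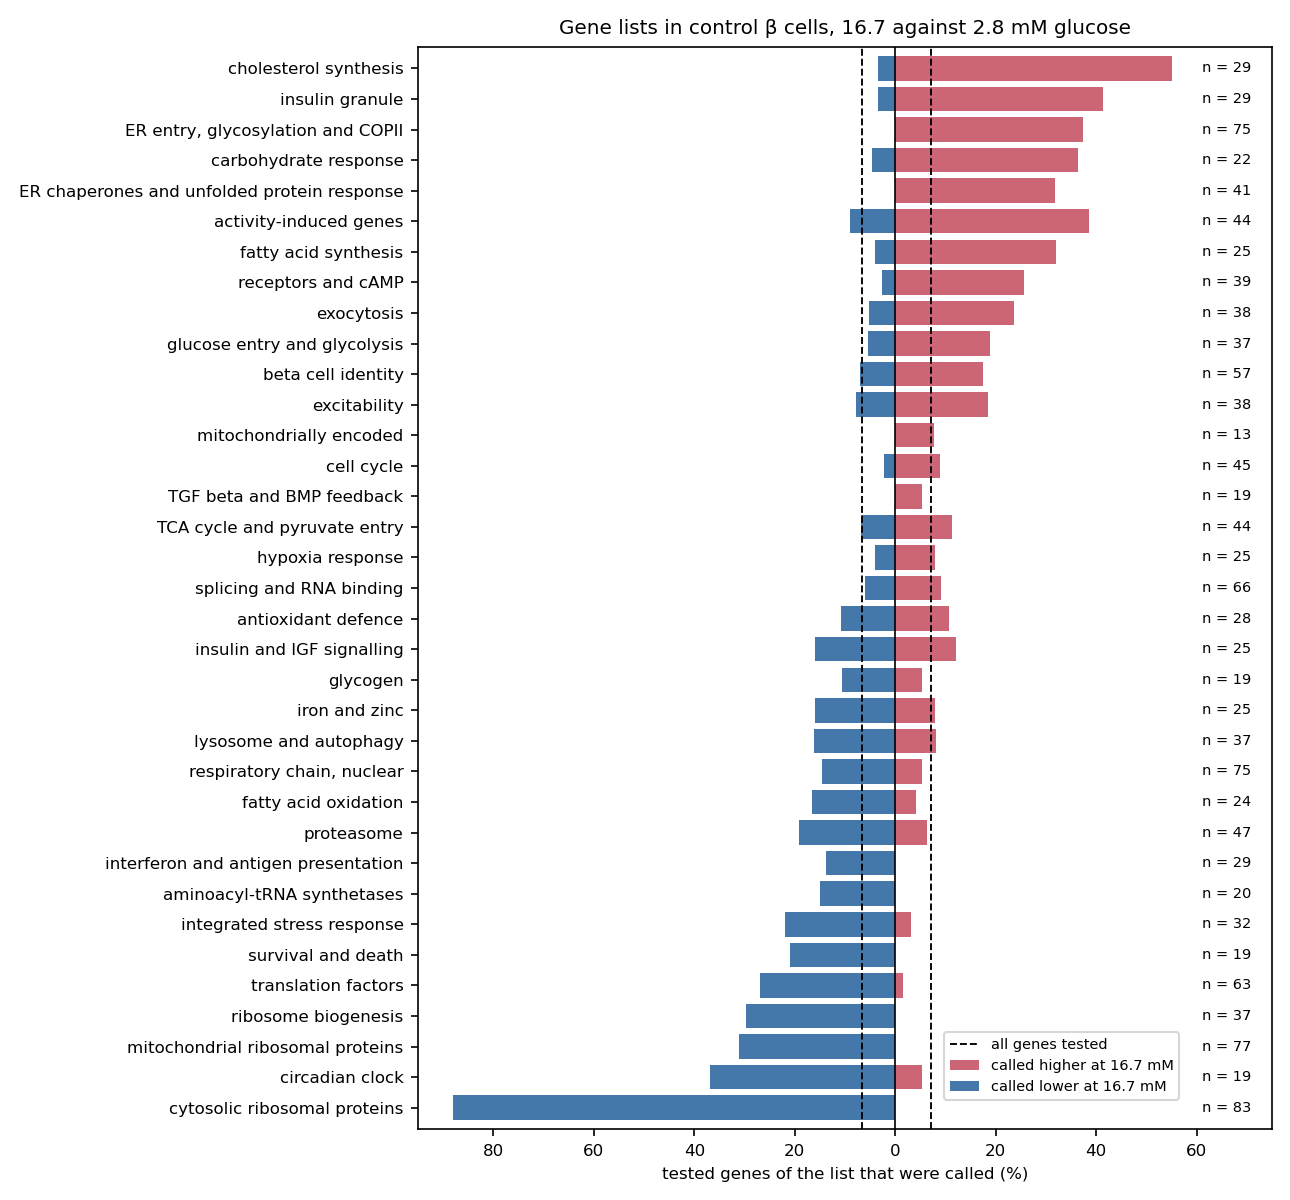
Share of the tested genes of 35 lists called higher (red, to the right) or lower (blue, to the left) at 16.7 against 2.8 mM in control β cells, in percent of the list, with dashed lines at the shares of all tested genes (7.15% and 6.69%). The shares of all tested genes include 9789 genes with a mean under 1 CPM, of which 4.38% were called. The number of tested genes stands at the right. Cytosolic ribosomal proteins lie at the lower end (73 of 83 lower) and cholesterol synthesis at the upper end (16 of 29 higher).

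Glucose entry and glycolysis changed in part. Of 37 tested genes 7 were called higher and 2 lower (18.9% and 5.41%, against 7.15% and 6.69% of all genes), with a median of 0.21 that turned to -0.15 with total counts. The increases numbered 3 without low-glucose replicate 2 and 12 with the replicate block. The main glucose transporter of mouse β cells, *Slc2a2*, was at 213, 122 and 257 CPM at low and 288, 139, 306 and 568 CPM at high glucose, so that the groups overlapped (adjusted p = 0.285). *Slc2a1*, the transporter of most other cells, fell by 1.00 (SE 0.33) on the log2 scale, a call kept only without low-glucose replicate 3 or high-glucose replicate 1 (adjusted p = 0.0661 to 0.223 in the other 5 fits). *Eno2*, a neuronal enolase, fell from 84.4 ± 18.4 to 39.2 ± 9.08 CPM. *Ldha*, which makes lactate and which β cells normally keep low, varied from 4.92 to 60.5 CPM within the high-glucose samples and was not called (adjusted p = 0.0980).

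Targets of ChREBP rose in part. Of 15 targets on the list 7 were called higher and none lower, with a median of 0.70, against 7.15% and 6.69% of all genes. The other targets were not called, and some of them had a negative log2 fold change. *Txnip*, an arrestin-like protein that inhibits thioredoxin and glucose uptake, was at 28.5, 18.96 and 22.5 CPM at low glucose and at 723, 645, 685 and 508 CPM at high glucose (log2 fold change 4.78, SE 0.37, adjusted p = 3.88e-06). Its relative *Arrdc4* was at 20.3, 25.4 and 19.6 CPM at low glucose and at 54.3, 60.8, 69.8 and 54.1 CPM at high glucose (log2 fold change 1.46, SE 0.20, adjusted p = 0.000374), and *Rgs16*, a brake on G protein signalling, was at 5.96, 5.41 and 4.43 CPM at low glucose and at 46.9, 33.4, 40.6 and 51.98 CPM at high glucose (log2 fold change 3.04, SE 0.33, adjusted p = 0.000114). In *Rgs16* replicate 4 was the highest sample, in contrast to the lists above. *Klf10*, a transcriptional repressor that the list holds among factors and not among the targets, rose by 1.31 (SE 0.32) on the log2 scale. The message of the factor itself, *Mlxipl*, was at 88.3 ± 29.2 and 78.9 ± 33.3 CPM and was not called. The promoter of *Txnip* holds a carbohydrate response element, searched as CACGNG and again CACGNG after 5 bases, on either strand. It is shown because *Txnip* was the called gene with the motif and among the 12 largest increases, with the element in capitals, as RefSeq has it on the gene's strand (build GRCm38.p6, chr3:96557866-96557894, plus strand).
Txnip: actgtgCACGAGGGCTGCACGAGcctcca
The capitals lie 85 to 69 bases before the annotated start. Of 14075 tested genes with a promoter in RefSeq (250 bases before to 50 after the start), 10 held this element (0.0711%), which were 1 of the 1148 called higher with a promoter and 1 of the 1169 called lower, *Fnip1*, named here after its value was seen.

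Genes of lipid synthesis rose in part. Of 25 genes of fatty acid synthesis 8 were called higher and 1 lower (median 0.39), against 7.15% and 6.69% of all genes. The enzymes alone gave 6 of 14 higher and none lower. *Acly*, which makes cytosolic acetyl-CoA from citrate, was at 1956, 1029 and 1972 CPM at low glucose and at 3460.4, 3273, 3267 and 2792 CPM at high glucose (log2 fold change 0.95, SE 0.20, adjusted p = 0.00443). Fatty acid synthase, *Fasn*, was at 47.8, 36.1 and 46.5 CPM at low glucose and at 153, 98.4, 83.5 and 71.3 CPM at high glucose (log2 fold change 1.22, SE 0.26, adjusted p = 0.00536), and the desaturase *Scd2* was at 75.7, 48.9 and 66.6 CPM at low glucose and at 285, 201, 166 and 155 CPM at high glucose (log2 fold change 1.66, SE 0.32, adjusted p = 0.0027). No sample of one group reached the other in these enzymes. *Fads2*, the delta-6 desaturase, rose from 1.17 ± 0.168 to 13.6 ± 7.52 CPM and *Thrsp*, a lipogenic activator, from 0.341 ± 0.0251 to 4.74 ± 2.54 CPM. *Srebf1*, which encodes the SREBP1 factors, rose by 0.91 (SE 0.24) on the log2 scale, a call lost without low-glucose replicate 2 or 3 or high-glucose replicate 1 (0.57, under the fold threshold, in the last).

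Cholesterol synthesis was the list with the largest share of called increases, 16 of 29 with 1 lower, against 7.15% and 6.69% of all genes. The median was 0.78. Without replicate 4 there were 17 and 1. Without high-glucose replicate 1 or low-glucose replicate 3 there were 11 higher, the fewest of the 7 fits that left out a sample. All 20 pathway enzymes had a positive log2 fold change and 12 were called, though with total counts their median was 0.39. *Hmgcs1*, which makes the substrate of the rate-limiting reductase, was at 54.1, 47.9 and 50.6 CPM at low glucose and at 93.02, 96.6, 103 and 100.3 CPM at high glucose (log2 fold change 0.95, SE 0.14, adjusted p = 0.00061). *Idi1*, an isomerase further along, was at 13.5, 13.3 and 18.4 CPM at low glucose and at 43.02, 59.3, 87.4 and 60.3 CPM at high glucose (log2 fold change 2.05, SE 0.25, adjusted p = 0.000254). The high-glucose samples lay above all low-glucose samples in both, replicate 4 included. *Insig1*, which holds SREBP in the ER, rose by 1.17 (SE 0.22) on the log2 scale. *Mylip*, a ubiquitin ligase driven by the sterol-sensing LXR factors, was at 9.25, 6.43 and 6.27 CPM at low glucose and at 3.23, 1.71, 1.31 and 4.74 CPM at high glucose (log2 fold change -1.41, SE 0.33, adjusted p = 0.00865).

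Mitochondrial genes moved in both directions. In the TCA cycle and pyruvate entry 5 of 44 genes were called higher and 3 lower (11.4% and 6.82%, against 7.15% and 6.69% of all genes), with a median of 0.08 that turned negative with total counts (-0.32). *Fh1*, fumarase, was at 131, 109 and 109 CPM at low glucose and at 568, 392, 543 and 195 CPM at high glucose (log2 fold change 1.87, SE 0.28, adjusted p = 0.000682), whereas *Idh2*, the mitochondrial NADP-dependent isocitrate dehydrogenase, was at 463, 383 and 391 CPM at low glucose and at 223, 141, 155 and 281 CPM at high glucose (log2 fold change -1.04, SE 0.25, adjusted p = 0.00983). *Ogdh*, of the oxoglutarate dehydrogenase complex, rose by 0.93 (SE 0.17) on the log2 scale. Of 75 nuclear genes of the respiratory chain 4 were called higher and 11 lower (5.33% and 14.7%, median -0.10, and 0.05 without replicate 4), the higher ones all subunits of complex I. Its subunits moved in both directions, *Ndufa1* from 119 ± 2.71 to 385 ± 180 CPM and *Ndufb10* from 169.7 ± 35.5 to 92.9 ± 11.003 CPM. Of the 13 mitochondrially encoded genes only *mt-Nd4l* was called (higher, a call kept only without high-glucose replicate 4, with -0.17 on log2(TPM + 1)), and the list's median of 0.31 turned to -0.09 with total counts. For fatty acid oxidation 1 of 24 was called higher and 4 lower (4.17% and 16.7%, median -0.16). Expressed genes were called more often than the share of all genes. Of 6769 genes with a mean of 10 to 100 CPM, 606 were called higher and 864 lower. Of 1645 with 100 to 1000 CPM, 225 were higher and 252 lower. The shares called lower in the respiratory chain and fatty acid oxidation are near those of genes of such levels. *Ucp2*, an inner-membrane carrier that lowers the yield of ATP, was the increase and was at 82.5, 67.9 and 70.5 CPM at low glucose and at 288, 289, 195 and 141 CPM at high glucose (log2 fold change 1.63, SE 0.26, adjusted p = 0.000839), and *Acaa2*, the last enzyme of β-oxidation, fell from 50.03 ± 8.27 to 21.0 ± 4.91 CPM.

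Genes that bring proteins into and out of the ER rose in large number. Of 75 genes of ER entry, glycosylation and COPII transport 28 were called higher and none lower, against 7.15% and 6.69% of all genes. The median was 0.58. Without replicate 4 there were 46 and none, and with the replicate block 49 and none, whereas without low-glucose replicate 2 there were 8. *Sec61a1*, the pore of the translocon, was at 499, 322 and 466 CPM at low glucose and at 1215, 954, 1196 and 609 CPM at high glucose (log2 fold change 1.21, SE 0.25, adjusted p = 0.00429). *Surf4*, a cargo receptor for export from the ER, was at 613, 448 and 582 CPM at low glucose and at 1631, 1365, 1512 and 835 CPM at high glucose (log2 fold change 1.29, SE 0.22, adjusted p = 0.00153). *Rpn1*, a subunit of the oligosaccharyltransferase, was at 654, 386 and 552 CPM at low glucose and at 1441, 1167, 1341 and 705 CPM at high glucose (log2 fold change 1.13, SE 0.27, adjusted p = 0.00929). In all 3 the groups separated and replicate 4 was the lowest of the high-glucose samples, at less than 1.5 times the highest low-glucose sample. The call of *Rpn1* was lost without low-glucose replicate 2 (adjusted p = 0.0648). *Dad1*, of the same transferase, had replicate 4 (211 CPM) inside the low-glucose range (189 to 231 CPM). *Kdelr3*, a receptor that returns ER proteins from the Golgi, rose from 9.23 ± 1.92 to 42.1 ± 17.8 CPM.

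ER chaperones and genes of the unfolded protein response rose in part and with a wide spread. Of 41 genes 13 were called higher and none lower (median 0.59), beside 7.15% and 6.69% of all genes. There were 22 higher and 2 lower without replicate 4, 24 and 2 with the replicate block and 6 higher without low-glucose replicate 2. *Fkbp11*, a prolyl isomerase of secretory cells, was at 31.1, 26.2 and 28.9 CPM at low glucose and at 342, 277, 284 and 58.7 CPM at high glucose (log2 fold change 3.07, SE 0.59, adjusted p = 0.00266). *Ero1b*, the pancreatic oxidase that lets disulfide bonds form, was at 928, 531 and 1080 CPM at low glucose and at 2839, 1590, 2710.1 and 2073 CPM at high glucose (log2 fold change 1.44, SE 0.28, adjusted p = 0.00312). *Dnajc3*, a co-chaperone that also inhibits the ER stress kinase PERK, was at 406, 323 and 396 CPM at low glucose and at 1099, 1132, 1063 and 511 CPM at high glucose (log2 fold change 1.34, SE 0.29, adjusted p = 0.00521). In *Fkbp11* and *Dnajc3* replicate 4 lay much nearer the low-glucose samples than its 3 companions did. The most abundant chaperone, *Hspa5* (BiP), was at 5803 ± 617 CPM at low and 5220 ± 637 CPM at high glucose and was not called. *Syvn1*, the ligase of ER-associated degradation, rose by 1.25 (SE 0.27) on the log2 scale, and *Creld2*, an ER stress-induced isomerase, by 1.03 (SE 0.34), a call kept only without high-glucose replicate 4.

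The ER stress element, CCAAT and CCACG 9 bases apart on either strand, was in the promoter of 23 tested genes (0.163%), among them 4 called higher (0.348% of those with a promoter) and none called lower. The 4 were *Ero1b*, *Dnajc3*, *Creld2* and *Syvn1*. They are shown beside *Hspa5*, which holds the element and was not called, with the element in capitals and on the gene's strand, all of them plus (RefSeq, GRCm38.p6). The windows lie at chr13:12565677-12565705, chr14:118937822-118937850, chr15:88819515-88819543, chr19:6046527-6046555 and chr2:34772020-34772048 in this order.
Ero1b: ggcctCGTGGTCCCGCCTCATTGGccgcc
Dnajc3: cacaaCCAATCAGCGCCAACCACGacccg
Creld2: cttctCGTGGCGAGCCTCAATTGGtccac
Syvn1: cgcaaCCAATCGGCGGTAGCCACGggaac
Hspa5: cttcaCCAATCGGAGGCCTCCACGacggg
In *Ero1b* and *Creld2* the element lies on the opposite strand. These matches describe the letters of the promoters and show no binding.

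The integrated stress response, in which a slowed initiation of translation raises ATF4 and its targets, had more lower than higher genes. Of 32 genes 7 were called lower and 1 higher, against 6.69% and 7.15% of all genes. The median was -0.38. There were 11 lower and 3 higher without replicate 4, 12 and 4 with the replicate block, and 4 and 0 without low-glucose replicate 2. *Ddit3*, the stress factor CHOP, was at 621, 799 and 505 CPM at low glucose and at 64.7, 39.3, 48.97 and 269 CPM at high glucose (log2 fold change -2.61, SE 0.69, adjusted p = 0.0166). *Trib3*, a pseudokinase induced by it, was at 428, 386 and 299 CPM at low glucose and at 83.3, 44.2, 66.9 and 262 CPM at high glucose, without passing the test (adjusted p = 0.0697), though it did with the replicate block. The *Ddit3* call was lost in 4 of the 7 fits that left out a sample, those without low-glucose replicate 2 and high-glucose replicates 1, 2 and 3 (adjusted p = 0.0514 to 0.0645). For both genes, replicate 4 lay between its companions and the low-glucose samples. *Slc3a2*, the shared chain of several amino acid transporters, was at 727, 714 and 483 CPM at low glucose and at 359, 246, 268 and 340.2 CPM at high glucose (log2 fold change -1.08, SE 0.17, adjusted p = 0.000839). *Ppp1r15a*, which restores initiation, fell by 0.96 (SE 0.30) on the log2 scale, a call kept only without low-glucose replicate 3 or high-glucose replicate 4 (adjusted p = 0.0699 to 0.232 in the other 5 fits, with -0.64 without low-glucose replicate 2). *Atf4* itself did not pass the test (231 ± 33.9 and 175 ± 32.8 CPM). Of 20 aminoacyl-tRNA synthetases, many of them targets of ATF4, 3 were called lower and none higher. Most of the 20 had a mean of 100 to 1000 CPM. Among all 1645 genes of that level 252 were called lower, a share near that of the synthetases. *Sars* was one of the 3 called and fell from 737 ± 117 to 435 ± 56.5 CPM, and *Eprs* was another (716 ± 57.6 to 413 ± 97.4 CPM).

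Genes for cytosolic ribosomal proteins fell together. Of 83 tested genes 73 were called lower and none higher, against 6.69% and 7.15% of all genes. The median was -1.09. There were 68 and none without replicate 4, and 79 and none in *Pcbp2* βKO cells. The summed share of these genes in a library was 2.60%, 2.89% and 1.93% at low glucose and 0.962%, 0.857%, 0.805% and 1.06% at high glucose. *Rpl3* was at 895, 988 and 709 CPM at low glucose and at 316, 280.1, 280.0 and 376 CPM at high glucose (log2 fold change -1.46, SE 0.21, adjusted p = 0.000519). *Rpl22* was at 97.02, 107 and 75.96 CPM at low glucose and at 20.2, 18.8, 17.1 and 36.7 CPM at high glucose (log2 fold change -2.01, SE 0.31, adjusted p = 0.000709), and *Rps20* was at 171, 202 and 119.6 CPM at low glucose and at 60.5, 56.2, 47.02 and 67.5 CPM at high glucose (log2 fold change -1.505, SE 0.20, adjusted p = 0.000373). The groups were apart in each of these, and replicate 4 was within or near the range of its companions. *Rplp0*, of the stalk of the large subunit, fell by 0.70 (SE 0.21) on the log2 scale with overlap, a call kept only without low-glucose replicate 3 or high-glucose replicate 1, and *Rpl41*, the shortest of these proteins, was at 642 ± 179 and 447 ± 160 CPM and was not called. Ribosomal protein genes have many processed copies, and kallisto may have split reads between gene and copy. Of 58 tested pseudogenes of this family 4 were called lower and none higher (median -0.23).

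Other translation genes were also lower in part. Of 63 translation factors 17 were called lower and 1 higher (median -0.21). Beside this and each further list of this paragraph, 6.69% of all genes were called lower and 7.15% higher. *Eef1a1*, the elongation factor that brings aminoacyl-tRNA to the ribosome, was at 3329, 3202 and 2596 CPM at low glucose and at 1386, 1298, 1208 and 1612 CPM at high glucose (log2 fold change -1.14, SE 0.20, adjusted p = 0.00146). *Eef2*, which moves the ribosome along, fell from 1340.2 ± 267 to 555 ± 94.3 CPM, and *Eif4b*, a helper of the initiation helicase, was at 262, 261 and 232 CPM at low glucose and at 97.8, 86.4, 90.8 and 131 CPM at high glucose (log2 fold change -1.31, SE 0.17, adjusted p = 0.00034). Of 37 genes of ribosome biogenesis 11 were called lower and none higher (17 and none without replicate 4, 20 and none with the replicate block, and 5 without low-glucose replicate 2), among them *Npm1*, a nucleolar chaperone, from 426 ± 123 to 148 ± 38.6 CPM. Of 77 mitochondrial ribosomal proteins 24 were called lower and none higher (median -0.36), with 11 lower without low-glucose replicate 2.

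Genes induced by electrical activity and calcium were in part higher after 72 hours of high glucose. Of 44 tested genes 17 were called higher and 4 lower (median 0.76), against 7.15% and 6.69% of all genes. The 19 immediate-early factors gave 10 and 2. *Fos* was at 16.6, 4.63 and 6.04 CPM at low glucose and at 382, 168, 269 and 212 CPM at high glucose (log2 fold change 4.82, SE 0.61, adjusted p = 0.000288). *Nr4a1*, an orphan nuclear receptor, was at 1.90, 1.495 and 0.481 CPM at low glucose and at 84.4, 55.2, 72.8 and 5.09 CPM at high glucose (log2 fold change 5.397, SE 1.14, adjusted p = 0.00468). *Junb*, a partner of Fos, was at 26.2, 16.8 and 22.5 CPM at low glucose and at 199, 127, 101 and 82.6 CPM at high glucose (log2 fold change 2.55, SE 0.46, adjusted p = 0.00182). All high-glucose samples exceeded the low-glucose samples in the 3 genes, with replicate 4 at 5.09 CPM in *Nr4a1* and close to its companions in *Fos*. *Crem*, which encodes a repressor of cAMP-driven genes, rose from 27.2 ± 5.02 to 153 ± 76.0 CPM, and *Spry4* and *Dusp6*, feedback inhibitors of the MAP kinase pathway, by 3.85 (SE 0.62) and 3.36 (SE 0.78) on the log2 scale. *Myc* went the other way, from 31.3 ± 4.86 to 9.52 ± 4.88 CPM, a call kept only without low-glucose replicate 3 or high-glucose replicate 4 (adjusted p = 0.0623 to 0.0863 in the other 5 fits), and *Creb1*, the factor that binds cAMP response elements, fell by 0.60 (SE 0.15) on the log2 scale, under the fold threshold without low-glucose replicate 3 or high-glucose replicate 1 or 3.

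Signalling through cAMP and the brakes on excitability changed as well. Of 39 genes of receptors and cAMP signalling 10 were called higher and 1 lower (median 0.44), and of 38 genes of excitability 7 and 3 (median 0.18, and -0.22 with total counts). Beside both lists, 7.15% of all genes were called higher and 6.69% lower. *Pde10a*, a phosphodiesterase, was at 7.60, 7.33 and 9.89 CPM at low glucose and at 52.2, 57.9, 52.6 and 26.4 CPM at high glucose (log2 fold change 2.51, SE 0.33, adjusted p = 0.000345). *Prkar1a*, a regulatory subunit of protein kinase A, was at 799, 777 and 729 CPM at low glucose and at 1725, 2097, 2006 and 908 CPM at high glucose (log2 fold change 1.13, SE 0.23, adjusted p = 0.00405). *Rem2*, which inhibits voltage-gated calcium channels, was at 1.93, 1.90 and 1.48 CPM at low glucose and at 15.4, 16.1, 11.8 and 10.5 CPM at high glucose (log2 fold change 2.93, SE 0.28, adjusted p = 5.81e-05). Each rose in every high-glucose sample. *Gpr119*, a receptor for lipid amides, and *Gcgr*, the glucagon receptor, rose by 1.34 (SE 0.24) and 1.17 (SE 0.32) on the log2 scale, the *Gcgr* call being lost without low-glucose replicate 1 or 2 (adjusted p = 0.0504 and 0.106). *Kcnj11*, the pore of the ATP-sensitive potassium channel, was not called (54.5 ± 6.30 and 42.2 ± 7.31 CPM). *Trpm2*, a cation channel, fell from 35.9 ± 6.98 to 13.3 ± 6.19 CPM.

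The cAMP response element TGACGTCA was in the promoters of 434 tested genes (3.08%), 37 of those called higher (3.22%) and 41 of those called lower (3.51%). Promoters of called genes thus held it about as often as those of all genes tested. *Pcsk1* and *Dusp1*, a phosphatase of MAP kinases that rose by 2.06 (SE 0.40) on the log2 scale, are shown as members of the lists above that hold it, with the element in capitals (RefSeq, GRCm38.p6, chr13:75089768-75089797 on the plus strand and chr17:26508597-26508626 on the minus strand, each on the gene's strand).
Pcsk1: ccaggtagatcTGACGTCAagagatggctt
Dusp1: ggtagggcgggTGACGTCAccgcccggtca
The ATF4 element, searched as TGATGCAA on either strand, was in 118 promoters (0.838%), 10 of genes called higher (0.871%) and 11 of genes called lower (0.941%). *Slc1a4*, a neutral amino acid transporter, fell by 1.07 (SE 0.19) on the log2 scale and held it across its start (chr11:20332699-20332728, minus strand, the element on the opposite strand of the gene).
Slc1a4: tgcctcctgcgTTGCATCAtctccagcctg

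Factors of β cell identity rose more often than they fell. Of 57 genes of the list 10 were called higher and 4 lower, against 7.15% and 6.69% of all genes. The counts were 16 and 11 with the replicate block, and 6 and 1 without low-glucose replicate 2. The median was 0.33, and 0.00 with total counts. Of the 23 transcription factors 6 were called higher and 1 lower. *Nkx6-1* was at 16.1, 15.5 and 16.1 CPM at low glucose and at 31.98, 30.3, 34.3 and 30.2 CPM at high glucose (log2 fold change 1.00, SE 0.22, adjusted p = 0.00544). *Neurod1* was at 114, 89.4 and 127 CPM at low glucose and at 202, 199, 191 and 172 CPM at high glucose (log2 fold change 0.80, SE 0.15, adjusted p = 0.00259), and *Mafa*, an activator of the insulin genes, was at 4.47, 1.62 and 4.31 CPM at low glucose and at 15.7, 8.68, 15.9 and 12.6 CPM at high glucose (log2 fold change 1.93, SE 0.54, adjusted p = 0.0213). The groups did not overlap in these 3 factors, and replicate 4 lay with its companions. Without low-glucose replicate 2, where it was lowest, *Mafa* was no longer called (adjusted p = 0.111). *Rfx6*, another islet factor, fell by 0.88 (SE 0.24) on the log2 scale, a call lost without low-glucose replicate 1 or 2 or high-glucose replicate 1 or 3 (adjusted p = 0.0507 to 0.0808). *Prlr*, the prolactin receptor, rose from 251 ± 54.3 to 1163 ± 596 CPM. Among genes linked to dedifferentiation, *Aldh1a3*, a retinal dehydrogenase, was at 0.833, 0.464 and 1.39 CPM at low glucose and at 14.6, 8.59, 2.72 and 3.12 CPM at high glucose (log2 fold change 3.00, SE 0.94, adjusted p = 0.0374), a call lost in 5 of the 7 fits that left out a sample (all but those without high-glucose replicate 3 or 4), and *Bcl6*, a repressor, fell by 2.09 (SE 0.30) on the log2 scale.

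Cell cycle genes had a wide spread. Of 45 tested genes 4 were called higher and 1 lower (8.89% and 2.22%, against 7.15% and 6.69% of all genes), though the median was 1.20, and of 17 mitosis genes 1 was called (median 2.61). Without replicate 4 there were 7 mitosis genes called and with the replicate block 16, *Mki67* among them. *Mki67*, a marker of dividing cells, was at 0.914, 0.503 and 0.328 CPM at low glucose and at 12.2, 6.15, 2.22 and 1.47 CPM at high glucose (log2 fold change 3.24 (SE 1.10), adjusted p = 0.0523). Replicates 1 and 2 stood well above replicates 3 and 4 here. The mean of the 17 mitosis genes likewise rose by 3.44 and 2.74 on the log2 scale in replicates 1 and 2 and by 0.69 and 0.82 in replicates 3 and 4. *Ccnd1*, a cyclin of the G1 phase, was at 16.7, 11.4 and 10.1 CPM at low glucose and at 78.4, 61.99, 25.7 and 18.8 CPM at high glucose (log2 fold change 1.86, SE 0.42, adjusted p = 0.00706), while its kinase *Cdk4* was at 324, 316 and 259 CPM at low glucose and at 159, 135, 135 and 189 CPM at high glucose (log2 fold change -0.96, SE 0.14, adjusted p = 0.000655).

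Most of the called genes of the circadian clock and of iron handling were lower. Of 19 clock genes 7 were called lower and 1 higher (median -0.60), against 6.69% and 7.15% of all genes. There were 10 and 2 without replicate 4 as with the replicate block, and 2 lower without low-glucose replicate 2 or high-glucose replicate 2. *Nr1d1*, a repressor of the loop, was at 49.01, 48.1 and 50.95 CPM at low glucose and at 21.5, 26.3, 10.95 and 25.3 CPM at high glucose (log2 fold change -1.23, SE 0.27, adjusted p = 0.00597). *Rora*, the activator that binds the same sites, was at 137, 159 and 128 CPM at low glucose and at 61.7, 70.03, 62.1 and 93.8 CPM at high glucose (log2 fold change -0.97, SE 0.18, adjusted p = 0.00243). Low-glucose samples were above all high-glucose samples in both. Of 13 iron genes 4 were called lower and none higher (6 and none without replicate 4), beside the same shares of all genes. Without low-glucose replicate 1 or 2, or high-glucose replicate 1, 2 or 3, only 2 genes of iron and zinc together were called lower. *Ftl1*, the light chain of ferritin, was at 9660.4, 9771 and 7044 CPM at low glucose and at 3363, 2020.1, 1856 and 5093 CPM at high glucose (log2 fold change -1.52, SE 0.34, adjusted p = 0.00677), and *Fth1*, its heavy chain, fell from 1078 ± 118 to 498 ± 129 CPM. The ferritin chains have processed copies as well.

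*Pcbp2*, the gene deleted in the other samples (ENSMUSG00000056851, GRCm39 chromosome 15 from 102378928 to 102408805), was at 63.4, 73.4 and 50.7 CPM at low glucose and at 35.01, 45.4, 44.4 and 36.7 CPM at high glucose in these control cells, a difference of -0.63 (SE 0.18) on the log2 scale (adjusted p = 0.0208) that lost its call without low-glucose replicate 1 or 2 and without high-glucose replicate 1 or 4 (adjusted p = 0.0388 to 0.128, with a fold under 1.5 in some). Splicing and RNA-binding genes as a list showed no common direction, with 6 of 66 called higher and 4 lower (median -0.03; 10 and 6 with the replicate block). *Srsf3*, a splicing factor of the SR family, was at 82.4, 68.9 and 95.6 CPM at low glucose and at 148, 159, 201 and 149.9 CPM at high glucose (log2 fold change 1.00, SE 0.18, adjusted p = 0.00163), and *Hnrnpa2b1* rose from 229 ± 45.0 to 421 ± 59.4 CPM, while *Hnrnpc* fell by 0.84 (SE 0.27) on the log2 scale, a call kept only without high-glucose replicate 4 (adjusted p = 0.0634 to 0.139 in the other 6 fits). Of 47 proteasome genes 3 were called higher and 9 lower (median -0.08), with 0 and 4 without low-glucose replicate 2. Beside both lists, 7.15% of all genes were called higher and 6.69% lower.

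*Pcbp2* βKO cells, which share no sample with the control comparison, gave 5431 calls (23.8%) for the same concentrations. Both comparisons come from the same fit and its estimate of spread. Some samples of the same number also deviated together across genotypes, so the comparisons are not fully independent. Of the 3153 genes called in control cells 3119 (98.9%) had the same sign in the knockout and 2576 were called there in the same direction, which is 81.7% of the control calls and 47.4% of the knockout calls. Genes higher in control cells changed by a median of 1.34 on the log2 scale, against 1.25 in the knockout, and genes lower had -0.94 and -0.92. The 3 genes called in opposite directions, named after their values were seen, were *Csf2rb*, the long noncoding RNA *BB557941* and the pseudogene *Gm10925*. Each of the 3 lost its control call in 3 to 5 of the 7 fits that left out a sample. That 574 control calls were not called in the knockout does not show that the response differed. DESeq2 called 34 genes for the difference itself, but in simulation 25.2% of its calls for the control contrast were false. The edgeR test of the difference called 1 gene (0.00439%). This was *Ins1*, with 967 to 1751 CPM at low and 52818 to 70238 CPM at high glucose in the 5 and 5 knockout samples, a log2 fold change of 5.53 against 2.75 in control cells (difference -2.78, SE 0.36, adjusted p = 0.00903). The high-glucose ranges of the genotypes overlapped, and the low-glucose ranges did not. Without low-glucose control replicate 3 the difference was -2.56 and was no longer called (adjusted p = 0.0603).

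**Figure D5:**
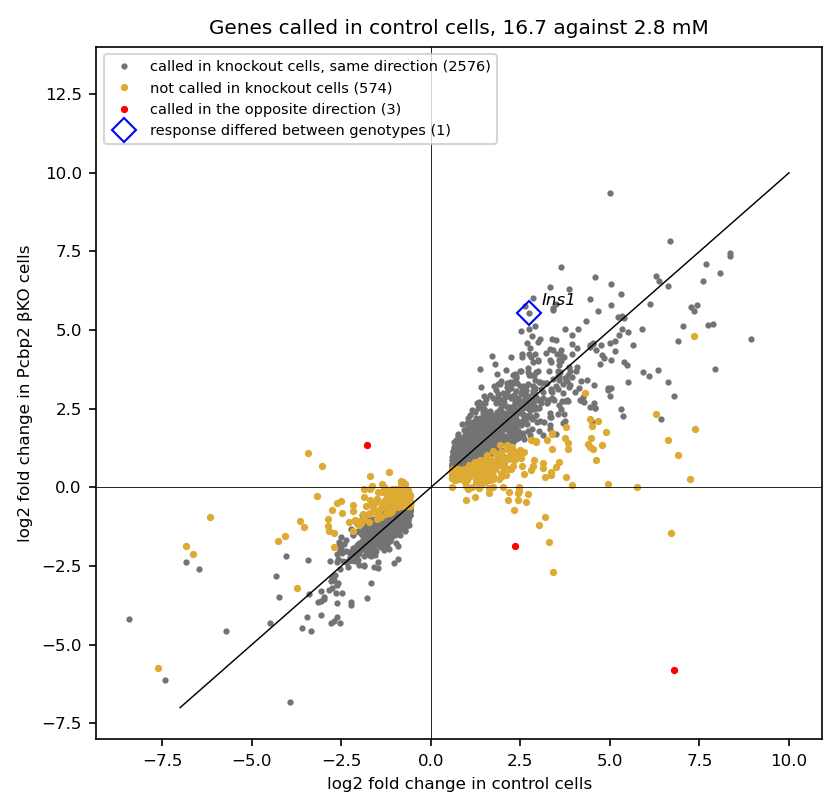
Log2 fold change at 16.7 against 2.8 mM glucose in *Pcbp2* βKO cells (vertical axis) against that in control cells (horizontal axis) for the 3153 genes called in control cells, with the line of equal change. Grey points (2576) were called in both in the same direction, yellow points (574) not in the knockout and red points (3) in the opposite direction; the blue diamond is *Ins1*, the 1 gene whose response differed by the test.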

How the data were processed

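RNA-sequencing of sorted β cells was deposited as 1 table per sample with 142376 transcripts, made by the authors with kallisto against the GRCm39 (mm39) transcriptome. The deposited estimated counts are not normalized between samples. The deposited TPM were scaled by kallisto to effective transcript length and to a common total per sample. Samples were grouped by the genotype and glucose concentration in their labels.

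For each gene the estimated counts of its transcripts were added up and rounded to whole numbers. Genes were filtered with filterByExpr, and the 4 group means of all 17 samples were fitted with edgeR 4.0.16 in R 4.3.3 (TMM, quasi-likelihood F test). A gene was called at a fold change over 1.5 with a Benjamini-Hochberg adjusted p under 0.05. A knockout sample never entered a control group mean. CPM in the text use TMM-scaled library sizes, and log2 CPM a prior count of 2. The study's methods name a batch term, whose levels are not given in the sources used here and could not be fitted. No strand setting is given, so reads of overlapping and antisense genes cannot be told apart, nor can those of near-identical copies.

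Members of the lists and the lists themselves were chosen with earlier results of these data known, so their counts are descriptions. Genes were named by a rule. From each list it took up to 4 called members with the largest change and a mean of at least 5 CPM, and the 1 or 2 most abundant members. From all genes it took the 12 largest increases and the 12 largest decreases. The text gives a selection of these.

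Replicate numbers were checked for pairing. Deviations from the group means correlated across genes by 0.199, 0.123 and 0.258 between low- and high-glucose control samples of the same number, each above the limit of 0.1 set for pairing. Between control and knockout samples of the same number at 2.8 mM, the correlation was 0.0474, 0.244 and 0.120 for replicates 1, 2 and 3. The numbers were therefore also used as a block within the control samples. The pairing comes from this check and not from the labels. Replicate 4 has no partner, so the block rests on the same control samples as the fit without replicate 4. Counts given under both are therefore not separate checks. The block also leaves few degrees of freedom for the spread.

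Alternatives were DESeq2 1.42.0, other scalings and filters, limma 3.58.1 on log2(TPM + 1), and leaving out each sample. On simulated data with 200 changed genes of 22784, the edgeR fit of the control contrast recovered 23% of 2-fold and 52% of 4-fold changes, with 2.6% of its calls false. DESeq2 recovered 35% and 66% there, with 25.2% of its calls false. Promoter sequences came from a RefSeq table (GRCm38.p6), and no coordinate was carried between builds. Some results are not reported here.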

Additional observations from a re-analysis of the deposited data

Results flagged for a closer look

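In 14 of the 149 named genes, the highest or the lowest of the 4 high-glucose control samples lay far from the nearest of the others, by a share of the group's range in log2 CPM above the 95% critical value of Dixon's test. Chance flags about 1 in 20 groups of 4. In 13 of the 14 the sample apart was replicate 4, on the side of the low-glucose samples. The share of the range was 0.977 for *Thrsp*, the lipogenic activator, 0.955 for *Cyb5r1*, a cytochrome b5 reductase, 0.924 for catalase (*Cat*), 0.922 for *Dnajc3* and *Wipi1*, 0.909 for *Spry4*, 0.89 for *Pik3r1*, 0.881 for *Fkbp11*, 0.868 for *Pde10a*, 0.863 for *Bcl6*, 0.856 for *L1cam* and 0.849 for both *Nr4a1* and *Nr4a2*. The pseudogene *Gm10925* (0.922) stood apart in replicate 1 instead. None of the mean levels of the 35 lists passed this limit.

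The response of *Ins1* differed between the genotypes by the test of the difference itself. It was smaller in control cells by 2.78 on the log2 scale (control minus knockout -2.78).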

How the results depend on the processing

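The count of 3153 genes called in control cells stayed within 1.5 times under DESeq2 (3921), RLE size factors, without the counts of *Ins1*, *Ins2* and *Iapp*, under both filters, with the 7 control samples alone, with length-scaled counts and without a fold threshold. It was 4837 with total counts, 6975 with limma on log2(TPM + 1), 8902 on log2(TPM + 0.1) and 6543 on log2(TPM + 1) without a filter, with 442 higher and 8460 lower at a pseudocount of 0.1. With the replicate block it was 5793, and 3069 of the 3153 calls were among these. Leaving out 1 sample gave 1436 to 4481 genes. The number of genes whose response differed between genotypes was 1, against 34 with DESeq2, 17 with the replicate block and 0 to 2 with a sample left out. It was 0 by edgeR without low-glucose control replicate 3, where 1046 genes had an unadjusted p under 0.05. The knockout count stayed within 1.5 times under all alternatives run. Of the library measures, the insulin share rose by 14.9 to 18.5 percentage points with a sample left out, the mitochondrial share changed by -0.58 points (-0.28 without low-glucose replicate 3, -0.36 without high-glucose replicate 1) and the number of genes with 10 counts by -1059 (-697 without low-glucose replicate 3). Of the 136 called genes that are named, 103 kept the call in all 7 fits without a sample, and most calls were lost without low-glucose replicate 2 (29) and fewest without high-glucose replicate 4 (3). The replicate block ended the calls of *Pcbp2* and *Rplp0*, whose folds fell under 1.5. Directions turned for *Cpe* (-0.032 with total counts, and -0.43 with limma at each setting), *Slc2a2* (-0.29, -0.29 at a pseudocount of 0.1), *mt-Nd4l* (-0.17 and -0.17) and *Txn1* (-0.083 and -0.084), where the median gene of at least 5 CPM stood at -0.74. *Mlxipl*, which was not called, ranged from -0.41 to 0.087 with a sample left out and was above 0 without replicate 3 of either concentration (0.022 at low glucose), and *Gm10925* ranged from -1.58 without high-glucose replicate 1 to 7.81. The cause of these changes was not tested. Of the 35 list medians 12 never changed sign. In simulation 25.2% of the DESeq2 calls were false, against 2.6% of the edgeR calls. Most changes of 2-fold were missed in simulation, where 200 genes were changed and no sample responded weakly. As 3153 genes were called in the data, that recovery does not measure the recovery of this comparison.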

Other observations

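Genes of the lysosome and of autophagy had calls in both directions in control cells. Of 37 tested genes 6 were called lower and 3 higher, against 6.69% and 7.15% of all genes, with a median log2 fold change of -0.27. Among the 6769 genes with a mean of 10 to 100 CPM, 864 were called lower, and among the 1645 with 100 to 1000 CPM, 252. The share of the list called lower is near those of genes of such levels. *Ctsd*, the lysosomal protease cathepsin D, was at 1215, 1080.3 and 963 CPM at low glucose and at 659, 611, 514 and 633 CPM at high glucose (log2 fold change -0.85, SE 0.14, adjusted p = 0.0012). *Mcoln1*, a calcium channel of the lysosomal membrane, was at 179.9, 181 and 139 CPM at low glucose and at 78.5, 71.8, 71.3 and 86.1 CPM at high glucose (log2 fold change -1.12, SE 0.16, adjusted p = 0.000618). The groups were apart in both, and *Lamp1*, a membrane protein of the same organelle, went from 85.3 ± 9.98 to 47.3 ± 8.98 CPM (adjusted p = 0.00351). *Atg14*, of the lipid kinase complex that starts autophagosomes, went from 46.5 ± 4.00 to 18.2 ± 6.396 CPM (adjusted p = 0.00282), whereas *Wipi1*, which binds the lipid that this kinase makes, was at 44.3, 27.4 and 36.03 CPM at low glucose and at 218, 222, 246 and 51.2 CPM at high glucose (log2 fold change 2.36, SE 0.52, adjusted p = 0.00608). *Gusb*, lysosomal β-glucuronidase, was also called higher (log2 fold change 1.03, SE 0.20).

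Antioxidant enzymes had calls in both directions. Of 28 tested genes 3 were called higher and 3 lower, against 7.15% and 6.69% of all genes (7 and 5 genes with the replicate block). The median of 0.19 turned to -0.20 with total counts. *Cat*, catalase, was at 34.3, 35.95 and 24.3 CPM at low glucose and at 5.93, 5.58, 6.17 and 20.7 CPM at high glucose (log2 fold change -1.71, SE 0.40, adjusted p = 0.00865), and *Sod1*, the cytosolic superoxide dismutase, went from 147 ± 35.5 to 74.9 ± 7.45 CPM (adjusted p = 0.000696). *Txn1*, the thioredoxin that *Txnip* inhibits, was at 56.7, 59.4 and 45.95 CPM at low glucose and at 101, 94.98, 106 and 62.1 CPM at high glucose (log2 fold change 0.75, SE 0.18, adjusted p = 0.00965). No sample of one group reached the other in these genes, but on log2(TPM + 1) the change of *Txn1* was -0.08.

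Among 25 genes of insulin and IGF signalling 3 were called higher and 4 lower (median -0.12). Beside this and each further list of this paragraph, 7.15% of all genes were called higher and 6.69% lower. The increases were *Igf1r*, the IGF1 receptor, which was at 31.1, 24.3 and 22.4 CPM at low glucose and at 75.3, 69.9, 103 and 44.5 CPM at high glucose (log2 fold change 1.497, SE 0.27, adjusted p = 0.00177), and *Pik3r1* and *Pik3r3*, regulatory subunits of phosphoinositide 3-kinase (log2 fold change 1.03, SE 0.20 and log2 fold change 1.17, SE 0.21). Of 19 genes of survival and death 4 were called lower and none higher (median -0.14), the one called in all 7 fits that left out a sample being *Bax*, which permeabilises mitochondria in apoptosis (log2 fold change -1.06, SE 0.21). Of 29 genes of interferon response and antigen presentation 4 were called lower and none higher (median -0.08), and *Cd274*, the ligand of the T cell receptor PD-1, was the one called in all those fits (log2 fold change -1.25, SE 0.27). Of 19 glycogen genes 2 were called lower and 1 higher (median 0.00). The increase was *Gbe1*, the branching enzyme (log2 fold change 0.94, SE 0.19). Lists of hypoxia (25 genes, 2 higher and 1 lower, median 0.07) and of TGF-β and BMP feedback (19 genes, 1 higher and none lower, median 0.33) turned negative in their medians with total counts (-0.33 and -0.07). Of 12 zinc genes 2 were called higher and none lower (median 0.16, and -0.21 with total counts). Without replicate 4, and also with the replicate block, there were 3 higher and 2 lower, the latter being the metallothioneins *Mt1* and *Mt2* (-1.68 and -2.24 without replicate 4).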
